A study of Homo sapiens with 10 samples.

Results

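The genes described here act in the synthesis of heme, the movement of its porphyrin precursors and the breakdown of heme. They were taken as every probe that the platform annotation assigns to HMOX1, HMOX2, BLVRA, BLVRB, ABCB6, FECH, ALAS1, ALAD, UROD or CPOX. This gave 15 probes for 9 of the 10 genes, out of 17752 genes tested; CPOX, which codes for coproporphyrinogen oxidase, has no probe named in the annotation used and was not analysed. NCI-H441, an established line from a human lung adenocarcinoma, was given the small molecule CLEFMA at 1 µM (treated, 5 arrays) or its solvent DMSO alone (control, 5 arrays). Both groups had 0.1% DMSO in medium with serum and were harvested after 12 h, and total RNA was hybridised to Illumina HumanWG-6 v3.0 bead arrays. The sample labels call the controls untreated, whereas the protocol gives them the solvent. The number of separate cultures is given as 5 per group in the series text, 4 wells in the treatment protocol and 3 biological replicates in the extraction protocol. Since none of these ties an array to a culture, p-values measure the spread between these samples only, which may be technical. All values come from a single line.

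Heme is an iron-containing ring that serves as cofactor of cytochromes, catalase and other oxygen-handling proteins. It is built in steps shared between mitochondria and cytosol, from 5-aminolevulinate to the porphyrin ring and finally the insertion of iron. Free heme promotes oxidation, and heme oxygenase opens the ring to give biliverdin, carbon monoxide and iron. The gene of the inducible oxygenase, HMOX1, is a classical target of the transcription factor NRF2 and is repressed by BACH1, a factor that heme itself inactivates.

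Levels below are log2 values after an offset of 3 and quantile normalization between arrays, and differences are treated minus control on that scale, which understates the change of dim probes. Levels of different probes are not comparable with each other. A probe counted as above background where its deposited log10 value exceeded 0.2, and 49.1% to 53.7% of the 48803 probes did so per array. Pairwise correlations between arrays ran from 0.973 to 0.993. The mean correlation of an array with the others was smallest for control 3, at 0.978, and next for treated 5, at 0.986. Of 6 epithelial markers, all 6 were above background on every array, and of 6 lung epithelial markers NKX2-1, SFTPA1, SFTPB and NAPSA were, while SFTPC was above background on 0 arrays. Of 6 erythroid markers measured, 0 were above background on every array, and the hemoglobin gene HBA1 was on 0 arrays. In the leukocyte and fibroblast lists 3 of 6 markers each were above background on every array. The log2 summed levels of leukocyte markers were 8.28 to 8.92 in controls and 8.23 to 8.71 in treated cells, and those of fibroblast markers 7.29 to 8.31 and 7.37 to 7.80, so the groups overlapped. All 6 epithelial markers had small negative differences, with a median of −0.17, and 0 passed. In RNA from a whole culture, fewer cells of a kind and less RNA per cell cannot be told apart.

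ABCB6, the gene of a porphyrin transporter, and FECH, that of the last enzyme of heme synthesis, were higher in treated cells, 2.27-fold and 1.80-fold. HMOX1 had the largest mean difference, 3.30-fold, but did not pass the test. A single treated array, treated 5, raised this mean and widened its spread. Without that array the HMOX1 difference was 2.17-fold and passed (limma adjusted p = 0.00883). BLVRB was 1.51-fold higher without passing. The enzymes that begin heme synthesis, ALAS1, ALAD and UROD, and the oxygenase HMOX2 differed by at most 0.25 on the log2 scale and did not pass. In all, 2 of 9 genes measured rose, 0 fell and 7 did not pass (limma adjusted p under 0.05 over all genes).

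Across all genes, 0.265% passed as higher and 0.0338% as lower, which is 47 and 6 genes; under median scaling these were 35 and 0. At an unadjusted p under 0.05, 4 of the 9 genes were higher and 0 lower, against 4.48% of all genes higher and 4.48% lower. In 4 of 9 genes every treated array lay above every control array, which held for 1.46% of all genes. All 9 differences were positive and lay between 0.02 and 1.72. Their median was 0.25, where that of all genes was 0.0067. Without control 3 the median of the 9 was 0.10 and 8 were positive, the exception being ALAD, and with array weights the median was 0.16.

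**Figure D1:**
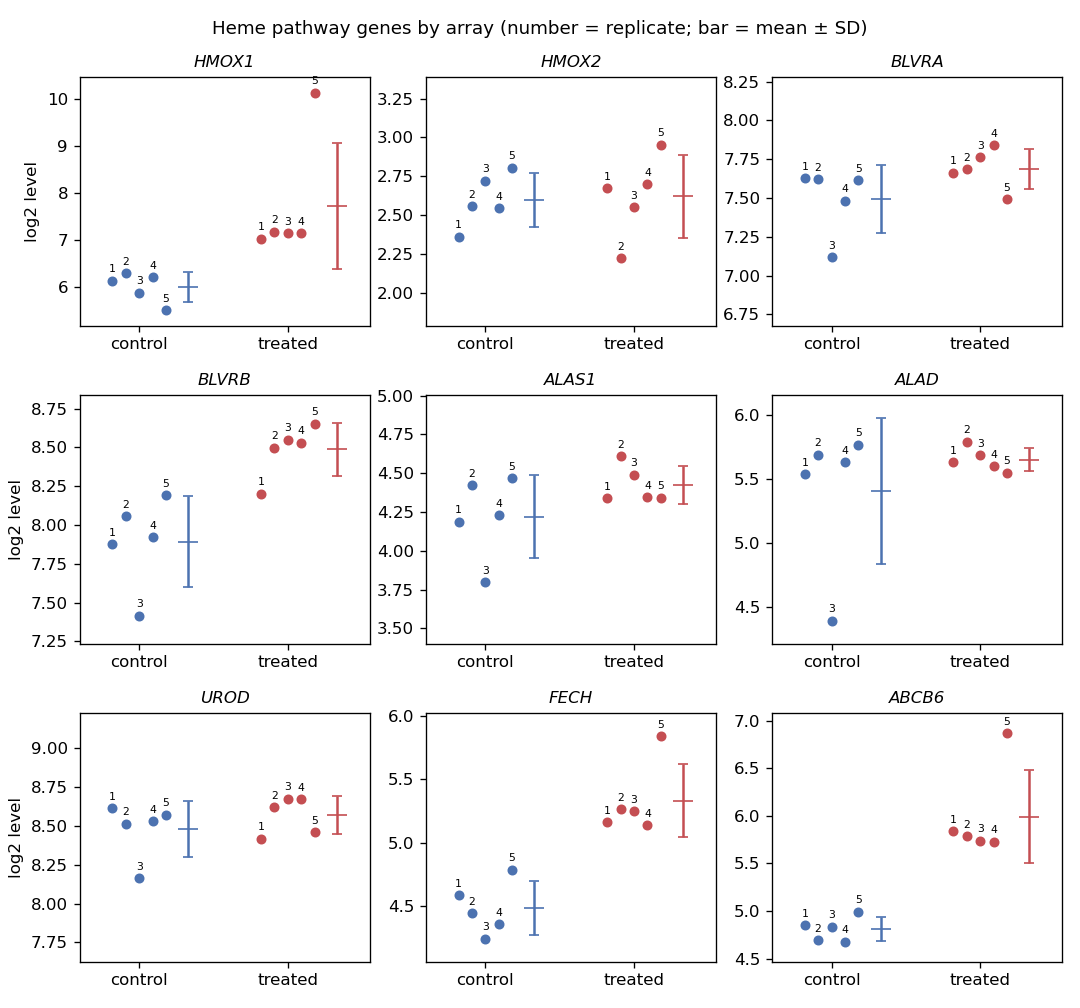
Log2 level (vertical axes, a separate range for each gene) of the 9 measured genes on each array; points are arrays labelled with their replicate number, and the bar beside each group is its mean ± SD (n = 5). Treated 5 stands above the other treated arrays for HMOX1 (10.14), FECH (5.84) and ABCB6 (6.87), and control 3 is the lowest array for BLVRA, BLVRB, ALAS1, ALAD, UROD and FECH.

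ABCB6 codes for an ATP-driven transporter of porphyrins, described in mitochondrial and other membranes. Its levels in controls 1 to 5 were 4.85, 4.69, 4.84, 4.68 and 4.99. In treated cells they were 5.84, 5.78, 5.74, 5.73 and 6.87. The groups did not overlap, and treated 5 lay about 1 log2 unit above the other treated arrays, which were close together. The difference was 1.18 ± 0.20 (SE, n = 5 per group, limma adjusted p = 0.0270). Without treated 5 it was 0.96 ± 0.092, a 1.95-fold rise with a smaller limma adjusted p of 6.34e-04. Its call was close to the threshold. With 1 array left out, ABCB6 passed in 2 of 10 cases, without control 5 or treated 5, and in the other 8 its limma adjusted p was at most 0.0982.

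FECH codes for ferrochelatase, the enzyme that inserts iron into protoporphyrin to complete heme. The brightest FECH probe, ILMN_1774091, read 4.59, 4.45, 4.25, 4.36 and 4.79 in controls 1 to 5. The treated arrays gave 5.16, 5.26, 5.25, 5.14 and 5.84. All treated values lay above all control values, with treated 5 again the highest. The difference was 0.85 ± 0.15 (SE, n = 5 per group, limma adjusted p = 0.0352) and 0.72 ± 0.11, or 1.64-fold, without treated 5 (limma adjusted p = 0.0306). With 1 array left out, FECH likewise passed in 2 of 10 cases, without control 5 or treated 5, and its limma adjusted p was otherwise at most 0.114.

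Both remaining FECH probes were dimmer, each above background on 4 of 5 control arrays and on all 5 treated arrays. ILMN_2364305 differed by 0.38 ± 0.26 and ILMN_1844073 by 0.23 ± 0.13 (SE), and their groups overlapped. When FECH was taken as the mean over its 3 probes, its difference was 0.49 ± 0.12 and it did not pass (limma adjusted p = 0.200). Tested over all 44606 probes rather than over genes, 0 of 14 probes of the measured genes passed, against 0.150% of all probes. In that larger family the limma adjusted p was 0.0595 for the ABCB6 probe and 0.0674 for ILMN_1774091 of FECH. At an unadjusted p under 0.05 the count was 4 probes, all higher in treated cells, against 3.86% of all probes that were higher at that threshold.

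The promoters of these genes are shown because ABCB6 and FECH were the members that passed. NRF2 with its small MAF partners binds antioxidant response elements, whose core reads TGACNNNGC. In RefSeq windows of 300 bases (GRCh38.p14, 250 before the start of the gene to 50 after it), searched on both strands, 13.3% of 35116 promoters held that core. Of the 9 members with a window, HMOX1 having none and the unmeasured CPOX being included, 2 held it, and these were ABCB6 and FECH. Members were counted by gene, with a match in any window of a gene counting, whereas the share is over single windows. The lines below are in the gene's own direction, and capitals mark a match to TGACNNNGC.
ABCB6, chr2:219218909-219219208, minus strand: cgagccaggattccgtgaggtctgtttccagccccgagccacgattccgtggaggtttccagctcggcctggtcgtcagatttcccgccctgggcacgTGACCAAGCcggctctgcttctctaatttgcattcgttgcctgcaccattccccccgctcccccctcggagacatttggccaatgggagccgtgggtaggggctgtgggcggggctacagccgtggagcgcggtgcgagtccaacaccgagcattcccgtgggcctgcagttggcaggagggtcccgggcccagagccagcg
FECH, chr18:57586653-57586952, minus strand: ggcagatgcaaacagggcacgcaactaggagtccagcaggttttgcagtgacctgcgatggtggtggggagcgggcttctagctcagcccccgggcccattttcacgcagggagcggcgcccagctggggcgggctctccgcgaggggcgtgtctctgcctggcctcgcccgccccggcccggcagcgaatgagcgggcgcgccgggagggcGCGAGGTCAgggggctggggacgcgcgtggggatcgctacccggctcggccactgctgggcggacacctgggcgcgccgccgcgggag
BLVRB, chr19:40465696-40465995, minus strand: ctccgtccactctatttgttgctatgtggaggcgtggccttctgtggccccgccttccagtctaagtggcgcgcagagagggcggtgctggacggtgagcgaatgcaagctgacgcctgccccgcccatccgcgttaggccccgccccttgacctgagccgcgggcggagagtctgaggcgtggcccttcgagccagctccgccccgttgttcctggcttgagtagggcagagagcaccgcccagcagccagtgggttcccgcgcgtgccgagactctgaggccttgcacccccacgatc

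In ABCB6 the match TGACCAAGC lay 152 to 144 bases before the start of the gene. In FECH it was on the opposite strand, where it reads TGACCTCGC, 38 to 30 bases before the start. The BLVRB window, printed for comparison because the BLVRB groups did not overlap either, holds none. Another form, TGAGNNNGC, was found in 3 of 9 members, FECH, UROD and CPOX, and in 18.3% of all promoters; the FECH match to it does not overlap the one in capitals. The motifs TGCTGAG and TGACTCA were found in 0 of 9 members and in 6.70% and 4.95% of all promoters. A match is a description of these letters, and binding of any factor was not measured.

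**Figure D2:**
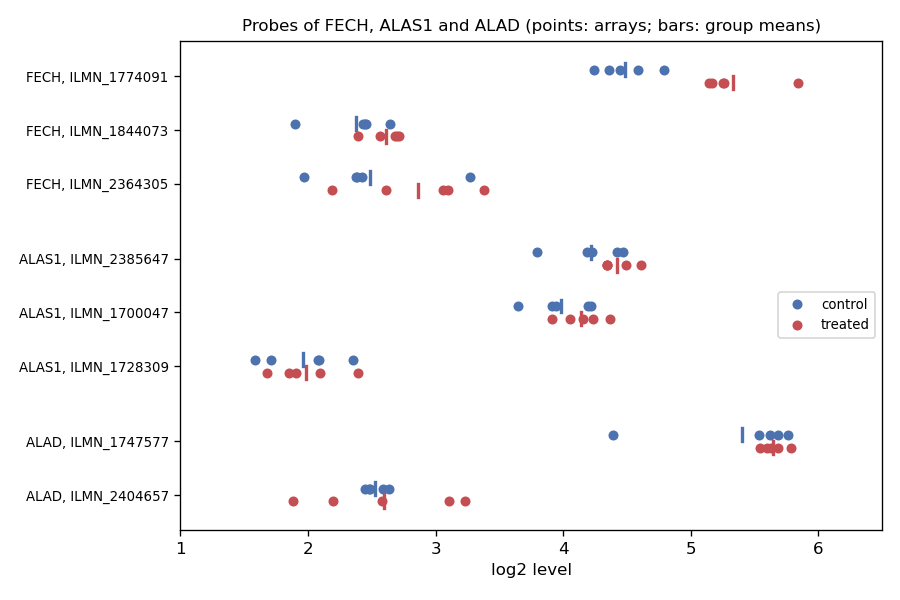
Log2 level (horizontal axis) of the tested probes of FECH, ALAS1 and ALAD, the members with several probes; points are single arrays (5 per group) and vertical bars are group means. The groups separate for ILMN_1774091 of FECH and overlap for the other 7 probes shown.

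HMOX1 codes for heme oxygenase, the inducible enzyme of heme breakdown. Its levels in controls 1 to 5 were 6.14, 6.30, 5.88, 6.21 and 5.51, and in treated 1 to 4 they were 7.03, 7.18, 7.15 and 7.16. Treated 5 was at 10.14, nearly 3 log2 units above the other treated arrays. Every treated array lay above every control array. The difference over all arrays was 1.72 ± 0.51 (SE, n = 5 per group, 95% interval 0.61 to 2.84, limma adjusted p = 0.337). Without treated 5 the mean difference fell to 1.12 ± 0.15, a 2.17-fold rise that passed (limma adjusted p = 0.00883), and without both arrays numbered 5 it was 0.99 (limma adjusted p = 0.00368). So the array that raised the mean also widened the spread, and HMOX1 passed in 3 of 24 alternatives, each of them without treated 5. Treated 5 was the highest of all 10 arrays for 5 of 9 genes, HMOX1, HMOX2 (a dim probe), BLVRB, ABCB6 and FECH, against 15.0% of all genes. In all of these but HMOX2 every treated array lay above every control, so the highest array could only be a treated one. The share over all genes does not allow for this. For BLVRA and ALAD treated 5 was the lowest treated array (7.49 and 5.55). What set this array apart was not tested.

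The genes most like HMOX1 across the arrays were sought among 11181 genes above background on every array, after each group's mean was taken off. The 5 nearest by Pearson r over 10 arrays were BRF2 (0.96), NSA2 (0.96), SRXN1 (0.96), GABARAPL1 (0.95) and LRR1 (0.95). SRXN1 codes for sulfiredoxin, which restores overoxidised peroxiredoxins, and GABARAPL1 for a protein of the autophagosome membrane. Within the pathway, ABCB6 had an r of 0.88 with HMOX1 and FECH one of 0.70. Over the 9 arrays without treated 5, r was −0.90 for ABCB6, −0.48 for FECH, −0.057 for SRXN1 and 0.078 for LRR1, so their likeness to HMOX1 rested on that array. It was lower but still positive for NSA2 (0.69), GABARAPL1 (0.68) and BRF2 (0.49). Among these 9 arrays HMOX1 spanned only 7.03 to 7.18 in treated cells but 5.51 to 6.30 in controls. All r values without treated 5 thus rest mostly on the controls. Control 5 was the lowest control for HMOX1 (5.51) and the highest for ABCB6 (4.99), and the r values without it were not computed.

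HMOX2, the constitutive heme oxygenase, had a dim probe with levels of 2.36 to 2.80 in controls and 2.22 to 2.95 in treated cells. The groups overlapped, and the difference was 0.02 ± 0.13 (SE, 95% interval −0.27 to 0.32). Its sign changed in 3 of 24 alternatives.

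Biliverdin is reduced by 2 enzymes. BLVRB, biliverdin reductase B, which also acts as a flavin reductase, read 7.88, 8.06, 7.42, 7.92 and 8.19 in controls 1 to 5. Treated arrays gave 8.20, 8.50, 8.55, 8.53 and 8.65. The groups did not overlap, although treated 1 and control 5 were nearly level and control 3 was low. BLVRB differed by 0.59 ± 0.14 (SE, n = 5 per group, limma adjusted p = 0.191), was positive in all 24 alternatives with a range of 0.48 to 0.75, and passed in 0 of them (lowest limma adjusted p = 0.0963). BLVRA, biliverdin reductase A, which makes bilirubin, ranged from 7.12 to 7.63 in controls and from 7.49 to 7.84 in treated cells. Its difference of 0.20 ± 0.12 did not pass (limma adjusted p = 0.610).

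Among the enzymes that start the pathway, ALAS1, the rate-limiting 5-aminolevulinate synthase outside red cells, ranged from 3.80 to 4.47 in controls and from 4.34 to 4.61 in treated cells. Its difference was 0.20 ± 0.13 (SE, 95% interval −0.07 to 0.48, limma adjusted p = 0.628). A second ALAS1 probe, ILMN_1700047, differed by 0.16 ± 0.12. The third, ILMN_1728309, was above background on 1 of 5 arrays in each group. In the other 2 ALAS1 probes, both above background on every array, the groups overlapped.

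ALAD, which joins 2 aminolevulinate molecules into porphobilinogen, read 4.39 on control 3 and 5.54 to 5.77 on the other controls, against 5.55 to 5.79 in treated cells. The difference of 0.25 ± 0.22 (SE, 95% interval −0.24 to 0.73, limma adjusted p = 0.731) was −0.0047 without control 3. Of the other ALAD probes, ILMN_2404657 differed by 0.07 ± 0.23, and ILMN_1679898 was above background on 0 arrays and was not tested. UROD, which decarboxylates uroporphyrinogen, ranged from 8.16 to 8.62 in controls and from 8.42 to 8.67 in treated cells, with a difference of 0.09 ± 0.11 (SE, 95% interval −0.14 to 0.32, limma adjusted p = 0.793). Control 3 was the lowest of all 10 arrays for 6 of 9 members, BLVRA, BLVRB, FECH, ALAS1, ALAD and UROD, and for 26.5% of all genes. Its part in these differences is shown by the values without it, which were 0.10 for BLVRA, 0.48 for BLVRB, 0.79 for FECH, 0.099 for ALAS1 and 0.011 for UROD. Without control 3 neither FECH nor ABCB6 passed (limma adjusted p = 0.0753 and 0.0567).

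**Figure D3:**
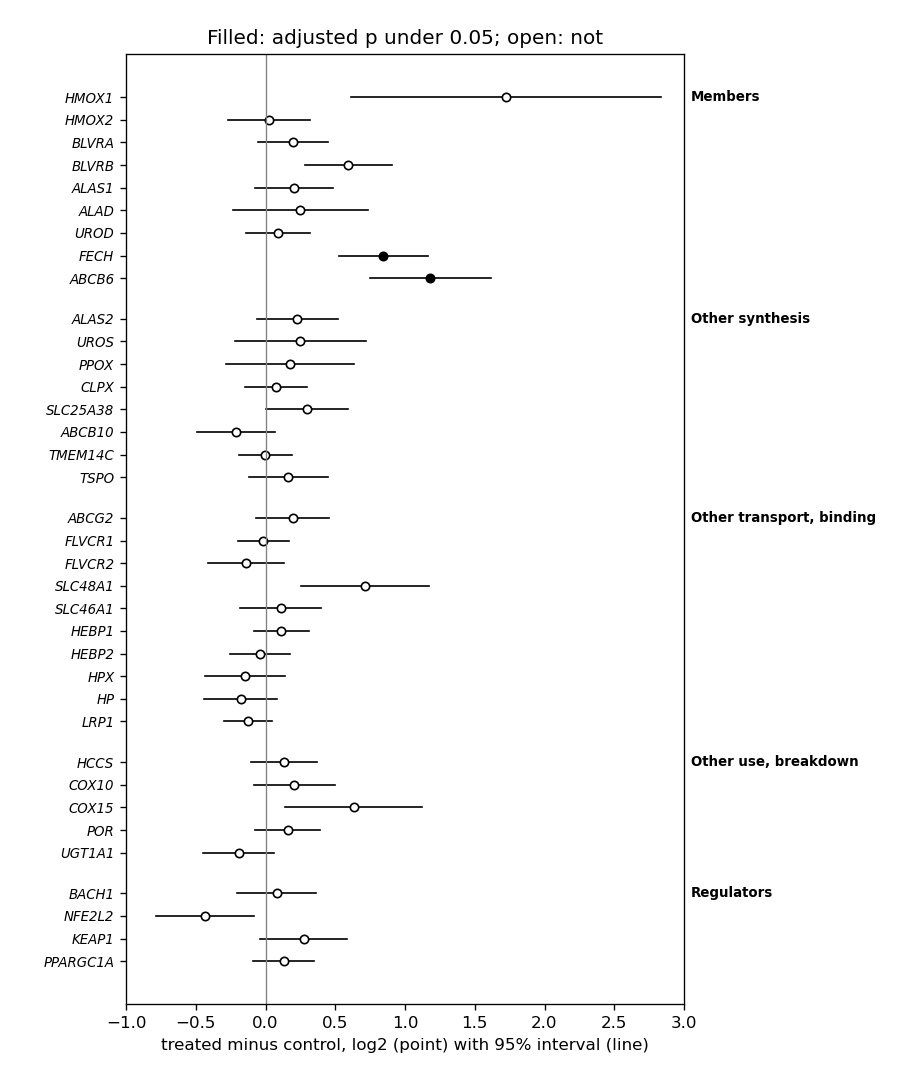
Treated minus control difference (point, log2, horizontal axis) with its 95% interval from limma, not adjusted for the number of genes, for the 9 members and 27 other genes of the pathway grouped by role; filled points passed at an adjusted p under 0.05. Only ABCB6 (1.18) and FECH (0.85) are filled, and HMOX1 has the widest interval, 0.61 to 2.84.

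Of 29 other genes of heme synthesis, transport, use and control, 27 were measured. In limma 0 passed as higher and 0 as lower. Before adjustment, the limma p was under 0.05 for 3 genes that were higher and for 1 that was lower. Over all genes these shares were 4.48% higher and 4.48% lower. The median difference of the 27 genes was 0.11. In 1 gene every treated array lay above every control array, and in 1 every treated array lay below, against 1.46% and 1.04% of all genes.

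The remaining synthesis enzymes differed little. UROS, uroporphyrinogen synthase, differed by 0.25 ± 0.22, and PPOX, protoporphyrinogen oxidase, by 0.18 ± 0.21 (SE), and control 3 was again the lowest array for both (5.89 and 3.79). Without it the differences were 0.015 ± 0.10 for UROS and −0.052 ± 0.11 for PPOX, an alternative chosen after seeing the data. ALAS2, the erythroid aminolevulinate synthase, was dim, though above background on every array, with levels of 2.53 to 2.89 in controls and 2.46 to 3.16 in treated cells and a difference of 0.23 ± 0.13. SLC25A38, a mitochondrial glycine carrier that feeds the first step, differed by 0.30 ± 0.13 (limma adjusted p = 0.548).

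Among carriers of heme, SLC48A1, which moves heme out of endosomes and lysosomes, was the gene whose treated arrays all lay above the controls. It read 3.86, 4.36, 4.49, 4.33 and 4.67 in controls and 4.78, 4.87, 5.01, 4.79 and 5.86 in treated cells, with treated 5 the highest. Its difference of 0.72 ± 0.21 (SE, n = 5 per group, limma adjusted p = 0.334) did not pass, and it was 0.52 without treated 5. The exporter genes FLVCR1 and ABCG2 differed by −0.02 ± 0.08 and 0.19 ± 0.12. POR, the reductase that supplies heme oxygenase with electrons, differed by 0.16 ± 0.11. COX15, which modifies heme for cytochrome oxidase and was chosen after its values were seen, differed by 0.63 ± 0.23 (limma adjusted p = 0.450).

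Of the regulators, NFE2L2, the gene of NRF2, read 8.56, 8.51, 9.37, 8.48 and 8.49 in controls and 8.38, 8.15, 8.19, 8.31 and 8.21 in treated cells. All treated arrays lay below all controls, and control 3 was high. The difference was −0.44 ± 0.16 (SE, n = 5 per group, limma adjusted p = 0.464) and −0.27 without control 3, and it did not pass in any of 24 alternatives. KEAP1, whose protein holds NRF2 for degradation, differed by 0.27 ± 0.14 (limma adjusted p = 0.583). The BACH1 probe was above background on 1 of 5 arrays in each group, so that its level is bounded by background rather than measured in most of them.

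**Figure D4:**
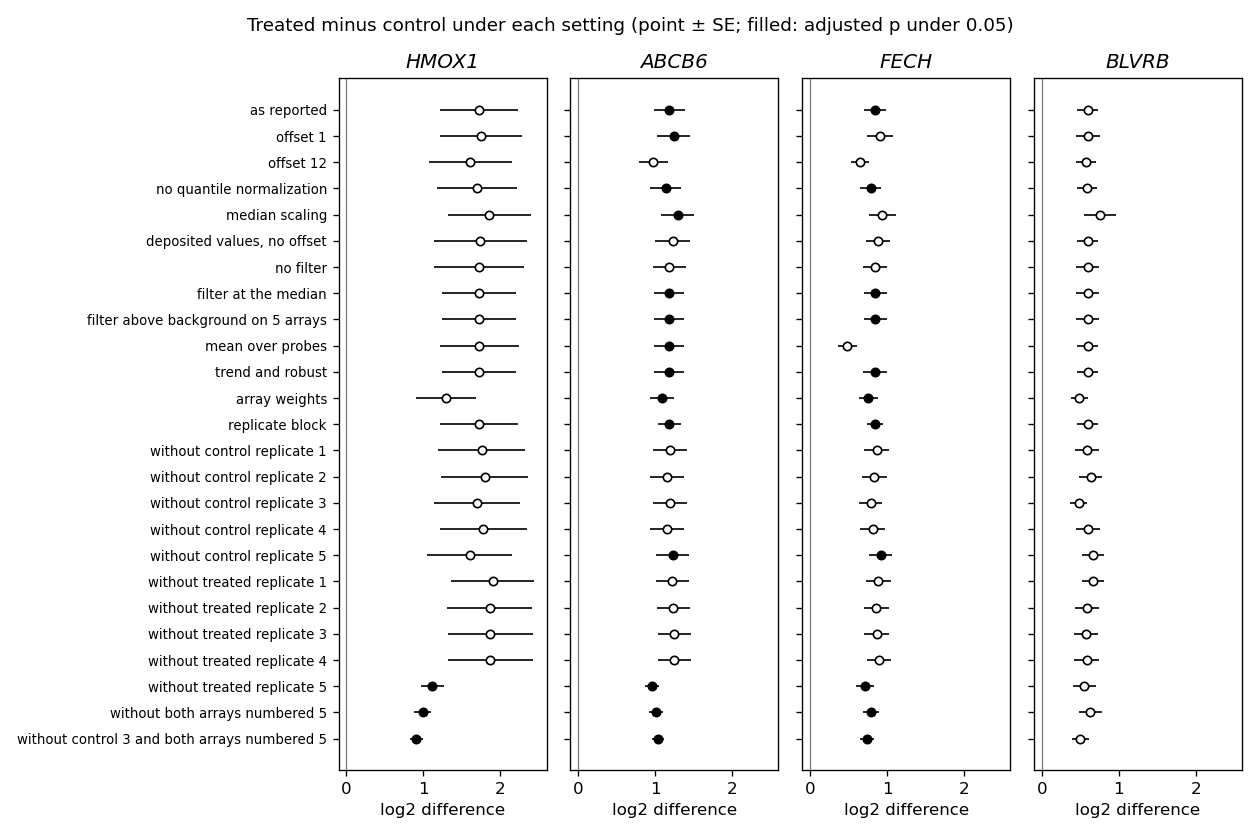
Treated minus control difference (point, log2, horizontal axes) ± SE of HMOX1, ABCB6, FECH and BLVRB as reported and under each of 24 alternatives (rows); filled points passed at a limma adjusted p under 0.05. All points lie above 0, from 0.91 to 1.90 for HMOX1, 0.96 to 1.29 for ABCB6, 0.49 to 0.94 for FECH and 0.48 to 0.75 for BLVRB.

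The direction of the differences of HMOX1, ABCB6, FECH and BLVRB was the same in all 24 alternatives, while the calls were not. ABCB6 passed in 13 of 24 and FECH in 10 of 24. With an offset of 12 the differences were 0.98 for ABCB6 and 0.65 for FECH, and neither passed (limma adjusted p = 0.0865 and 0.0771). On the deposited values with no offset they were 1.23 and 0.88, and neither passed (limma adjusted p = 0.142 and 0.105).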

How the data were processed

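Expression was measured on 10 Illumina HumanWG-6 v3.0 arrays, 5 per group, with groups taken from the sample titles. The value table deposited by the authors holds log10 values for 48803 probes; for the software, background method and normalization behind it, the sources used here give nothing. Its base was inferred from the values: just above each array's lowest value, the 5th percentile was 4.78 to 5.30 times the 1st after reversal with base 10, near the 5 of an evenly spread signal around 0, against 1.60 to 1.65 with base 2. The lowest value was shared by 24.2% to 25.2% of the probes of an array. Another deposited table has 10 columns whose names match no sample, and it was not used.

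The log was reversed, 3 was added to every value as an offset, and the log2 of the sum was quantile normalized. Probes whose mean exceeded the 25th percentile of all values (1.59) were kept, which left 44606. The annotation gave 27578 probes 1 symbol, updated through Entrez identifiers for 27541; 13 had several and 21212 were unlisted. Each gene was its brightest probe, which left 17752 genes. The test was two-sided, from lmFit and eBayes of limma 3.58.1 (R 4.3.3), on all 10 arrays with no covariate. P-values were adjusted by Benjamini-Hochberg over all genes or all probes. The fit was tested on simulated data. The number of arrays limits the precision. Members, lists and tests were chosen with earlier results of these data known. All members are named whatever their result. Of the other pathway genes, those that passed, those whose groups did not overlap and some set by role are named, with HMOX1's 5 nearest genes; COX15 was added after its values were seen. Alternatives covered the offset, normalization, filter, probe rule, a block for the replicate number, array weights, the variance model, and arrays left out. Promoters came from RefSeq (GRCh38.p14). Figures were drawn with matplotlib 3.10.9.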

Additional observations from a re-analysis of the deposited data

Results flagged for a closer look

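For 50 sets of 5 values (25 tested probes of the members and of the other named genes, in 2 groups), the distance from the most extreme array to the next was divided by the range of its group and set against Dixon's 95% critical value of 0.71. It was exceeded in 14 sets (28.0%). The share of such sets over all genes was not computed, so whether 28.0% is unusual for these arrays was not tested. Control 3 was the lowest of all arrays for 26.5% of all genes and the highest for 21.5%. For treated 5 these shares were 11.2% and 15.0%. SLC48A1 and NFE2L2 were among the named genes because their groups did not overlap. Sets that share arrays are not independent. Of the 14, 6 were for control 3 and 6 for treated 5.

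Treated 5 was high for HMOX1 (10.14, the others 7.03 to 7.18), ABCB6 (6.87, the others 5.73 to 5.84), FECH (5.84, the others 5.14 to 5.26), SLC48A1 (5.86) and KEAP1 (7.38). It was low for PPOX (4.56, the others 4.91 to 4.99). Control 3 was low for ALAD (4.39), UROS (5.89), PPOX (3.79), UROD (8.16) and BLVRA (7.12), and high for NFE2L2 (9.37, the others 8.48 to 8.56). Control 2 was low for the FECH probe ILMN_1844073 (1.90), and treated 3 was low for ALAS2 (2.46). What set these arrays apart was not tested.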

How the results depend on the processing

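As reported, 2 members rose. The count was 1 with an offset of 1, under median scaling and with the mean over probes, and 0 with an offset of 12, on the deposited values and with no filter; the cause was not tested. With 1 array left out it ran from 0 to 3, at 0 without any of controls 1 to 4 or treated 1 to 4, which leaves fewer samples, and at 3 without treated 5, where HMOX1 joined ABCB6 and FECH. The count of probes called, 0 as reported, was 2 (ABCB6 and FECH) with the filter at the median, with the filter on background, with trend and robust variance and with array weights. It ran from 0 to 2 with 1 array left out and was 3 without both arrays numbered 5, and 3 without these and control 3. The members lower and the other pathway genes higher or lower stayed at 0 in all 24 alternatives. HMOX2 changed sign without control 1 (−0.037), without treated 5 (−0.061) and without both arrays numbered 5 (−0.0092), and ALAD without control 3 (−0.0047). With 1 array left out, HMOX2 ran from −0.061 to 0.12 and ALAD from −0.0047 to 0.34. Over all genes, 26 to 71 were higher and 0 to 16 lower, against 47 and 6 as reported.

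Replicate number as a block left 2 members higher, and ABCB6 and FECH passed with limma adjusted p-values of 0.0202 and 0.0199. The same-numbered arrays had correlations of −0.089, 0.19, 0.088, −0.032 and 0.25 between their deviations from the group means. By this measure 2 of 5 controls correlated best with their own number. No label says what same-numbered arrays share, so these values cannot tell whether the numbers pair the arrays. The BACH1 probe and 1 ALAS1 probe were near background on most arrays, which limits what they can show.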
